A study of Mus musculus with 9 samples.

Results

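The mitochondrial ribosomal protein genes were taken as every gene whose symbol starts with Mrpl or Mrps, followed by a number and at most 1 further letter. This rule found 78 genes among the 17132 in the deposited table, 49 named Mrpl and 29 named Mrps, and all 78 passed the filter on low counts. The genes lie on 17 chromosomes, with 11 of them on chromosome 11. Pancreas of wild-type C57BL/6 mice weighing 22 to 25 g was sequenced in 3 groups of 3 mice, with no sex or age given in the labels. Control mice received 7 hourly intraperitoneal saline injections and saline as treatment. In Model mice each injection held caerulein, which mimics the gut hormone cholecystokinin and provokes acute pancreatitis by overstimulating the enzyme-secreting acinar cells. Bacterial lipopolysaccharide (LPS) joined the final injection, and treatment was saline. QYD mice were injured in the same way and treated at 0 and 8 h with Qingyi Decoction, an herbal medicine. Tissue of all 3 groups was taken at 24 h, so the values describe whole injured pancreas at 1 time. The 3 libraries of a group carry different numbers in the labels and were taken as separate mice.

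The mitochondrial ribosome translates the few proteins that mitochondrial DNA encodes, all of them core subunits of the respiratory chain and ATP synthase. Its RNA comes from mitochondrial DNA, whereas every protein of it is encoded in the nucleus, made on cytosolic ribosomes and imported. The large subunit forms peptide bonds and sits on the inner membrane, and the small subunit reads the messenger RNA. Both hold proteins with counterparts in bacterial ribosomes and proteins that only mitochondrial ribosomes have. Of the 78 genes, 51 encode large subunit proteins, 29 with a bacterial counterpart and 22 specific to mitochondria. The small subunit accounts for 26 genes, 16 with a bacterial counterpart and 10 specific to mitochondria. Mrps30 and Mrps18a were counted with the large subunit, where their products sit. Mrps36, whose product is now known as a component of the 2-oxoglutarate dehydrogenase complex, was put in neither subunit.

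Promoter stretches are shown for the 5 genes with the lowest changes in Model and for the 2 called higher, on the main scale below, because the family is known for NRF1, ETS-type (GABP) and YY1 sites at its start sites. The stretches run 5′ to 3′ on the coding strand, from RefSeq on build GRCm38.p6, and capitals mark matches to 4 motifs on either strand. The first 5 stretches span 130 bases before the RefSeq start site and 30 bases from it on. They are Mrpl30 (chr1:37890347-37890506, plus strand), Mrpl50 (chr4:49521054-49521213, minus), Mrps26 (chr2:130563627-130563786, plus), Mrpl45 (chr11:97315586-97315745, plus) and Mrps6 (chr16:92058206-92058365, plus). The last 2 are 30 bases inside the transcript around a YY1 match, in Mrps24 (chr11:5707652-5707681, minus) and Mrpl42 (chr10:95501900-95501929, minus).
Mrpl30: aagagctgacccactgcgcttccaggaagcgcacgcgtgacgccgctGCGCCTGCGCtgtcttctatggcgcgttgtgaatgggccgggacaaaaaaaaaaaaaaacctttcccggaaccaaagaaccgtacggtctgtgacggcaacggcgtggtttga
Mrpl50: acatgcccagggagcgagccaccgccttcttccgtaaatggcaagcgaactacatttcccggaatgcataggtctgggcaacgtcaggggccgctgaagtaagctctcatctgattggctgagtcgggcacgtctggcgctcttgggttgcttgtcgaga
Mrps26: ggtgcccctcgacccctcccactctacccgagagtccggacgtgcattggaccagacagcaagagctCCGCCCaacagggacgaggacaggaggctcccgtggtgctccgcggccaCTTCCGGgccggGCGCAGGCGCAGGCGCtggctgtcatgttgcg
Mrpl45: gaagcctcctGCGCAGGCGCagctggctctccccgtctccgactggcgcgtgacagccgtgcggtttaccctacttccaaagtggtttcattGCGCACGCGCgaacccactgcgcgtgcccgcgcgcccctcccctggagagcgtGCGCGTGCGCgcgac
Mrps6: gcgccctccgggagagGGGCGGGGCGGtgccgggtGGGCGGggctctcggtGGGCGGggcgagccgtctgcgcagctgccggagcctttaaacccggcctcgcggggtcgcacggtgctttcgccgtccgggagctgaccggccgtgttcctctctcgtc
Mrps24: cgggtcgcgccggcccAAGATGGCgtggtc
Mrpl42: ttgaagcAAGATGGCgagcgcgcggtgagt
Mrpl30 holds 1 NRF1 match, starting 83 bases before the start site, and Mrpl45 holds 3. Mrps26 holds 2 NRF1 matches that share bases with each other, an ETS match and an SP1 match. Mrps6 holds 4 SP1 matches, the first 2 of which share a base, and none of the other 3 motifs in its window. Mrpl50, the second lowest gene, holds no match to any of the 4 motifs in its 300-base window. NRF1 matches thus stood in genes that fell and in a gene that rose, and were absent from others of both kinds.

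RefSeq promoter windows of 300 bases, 250 before to 50 after the start, were matched for 69 of the 78 genes. The NRF1 motif (GCGCA, any 1 base, then GCGC, on either strand, as for all 4) stood in 13 of them (18.8%), against 11.1% of matched genes that passed the count filter and 4.60% of all windows. The ETS motif (CCGGAAG) stood in 26 (37.7%), against 19.7% and 8.86%. The YY1 motif (AAGATGGC) stood in 12 (17.4%), against 5.12% and 2.75%. SP1 (GGGCGG) stood in 34 (49.3%), which was below the 67.4% of tested genes and above the 35.7% of all windows. At least 1 of NRF1, ETS or YY1 stood in 43 of the 69 (62.3%), against 31.6% of tested genes. Among genes called lower in Model it was 15 of 24 (62.5%), and among those not called 27 of 43 (62.8%). NRF1 alone stood in 6 of 24 (25.0%) and 6 of 43 (14.0%), ETS in 10 (41.7%) and 16 (37.2%), and YY1 in 4 (16.7%) and 8 (18.6%). The differences between called and uncalled genes were not tested. Another protein-coding gene started on the opposite strand within 1000 bases upstream of 18 of the 78 genes (23.1%), against 8.50% of all protein-coding genes. Unlike the motif shares of tested genes, that 8.50% includes genes that failed the count filter, whereas all 78 passed it. Mrpl30 and Mitd1 start 66 bases apart, and Mrpl50 and Zfp189 start 83 bases apart. These matches are descriptions of letters and positions, and binding was not measured.

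Depth was even, with 19112923 to 20212744 counts per library, but composition was not. The 15 acinar markers held 61.0% to 62.9% of Control counts, 34.6% to 38.8% in Model and 34.0% to 37.0% in QYD, and 15 of 15 were lower in Model on the TMM scale. TMM scaling, which sets the typical gene equal between libraries, had factors of 0.359 to 0.397 in Control, 1.52 to 1.82 in Model and 1.36 to 1.79 in QYD. Of 8 neutrophil markers 7 were higher in Model. On the TMM scale the 8 summed to 8.53 to 38.1 CPM in Control, 115 to 181 in Model and 144 to 261 in QYD. Of the 6 duct markers 3 were higher and 1 lower. Their sums on that scale were 65.1 to 82.9, 184 to 303 and 163 to 269 CPM. Of 9 islet markers 7 were lower in Model and none higher, with sums of 856 to 1277 CPM in Control, 171 to 363 in Model and 119 to 213 in QYD on the TMM scale. As a share of all counts the islet markers overlapped between Control (0.0311% to 0.0506%) and Model (0.0259% to 0.0660%). None of the acinar markers was at 0 across all libraries, nor across all Control libraries. The part of these shifts in the results below was not tested. In whole tissue, fewer cells of a type and less RNA per cell cannot be told apart.

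As a share of all counts, mitochondrial ribosomal transcripts were higher in both injured groups, and relative to the typical gene they were lower in Model. The family's share of all counts was 0.0376% ± 0.0014 for Control, 0.130% ± 0.0098 for Model and 0.127% ± 0.0065 for QYD (mean ± SD, n = 3 each). Per library, the geometric mean over the 78 genes in CPM, counts scaled to a fixed library total, was 3.90, 4.12 and 4.08 in Control, 16.0, 15.8 and 13.7 in Model, and 15.6, 15.0 and 14.1 in QYD. Control and the injured groups did not overlap. With TMM factors the same measure was 10.9, 10.6 and 10.3 CPM in Control, 8.84, 9.04 and 9.05 in Model, and 8.75, 9.75 and 10.4 in QYD. Here all Model libraries lay below Control, while QYD spread from below Model to within the Control range. The median log2 fold change of all 12828 tested genes in Model versus Control moved by 2.15 between these scalings, and that of QYD versus Control by 2.03. Every direction given on the TMM scale is therefore relative to the typical gene.

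**Figure D1:**
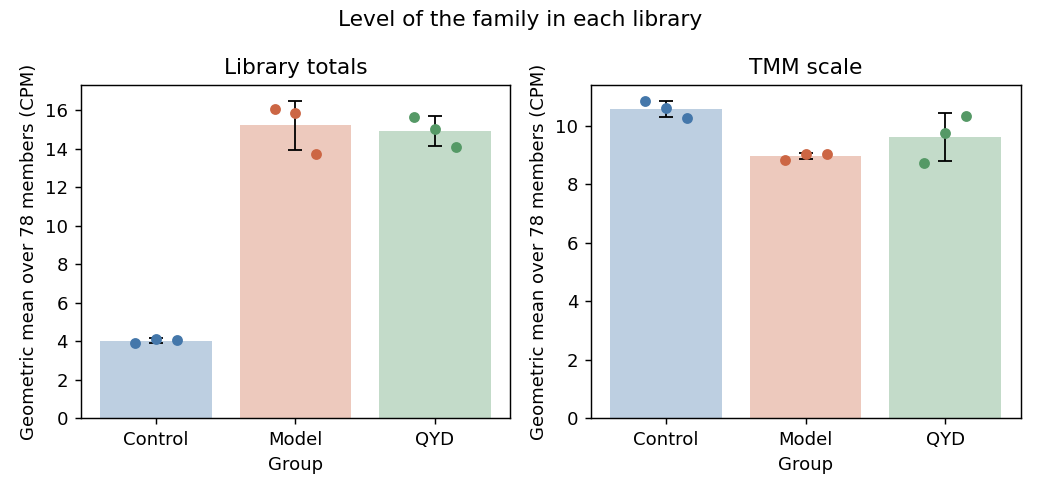
Geometric mean level over the 78 mitochondrial ribosomal protein genes in each library (points), in CPM without scaling factors (left) and in CPM with TMM factors (right); bars are means of 3 mice and whiskers ± 1 SD. On library totals Model (13.7 to 16.0) and QYD lie above Control (3.90 to 4.12), whereas on the TMM scale Model (8.84 to 9.05) lies below Control (10.3 to 10.9).

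Levels between genes were compared per length, in FPKM. In Control they ran from 0.373 FPKM for Mrpl19 to 36.1 for Mrpl30, a 96.8-fold spread around a median of 4.44. The spread was 37.6-fold in Model, from Mrpl19 at 2.13 to Mrpl52 at 80.3, and 38.5-fold in QYD, from Mrpl19 at 1.97 to Mrpl30 at 76.0. A ribosome holds nearly all of these proteins in the same copy number, whereas their transcripts differed widely. Mrpl30, a large subunit protein with a bacterial counterpart, stood at 36.1 ± 1.33 FPKM in Control, 70.5 ± 3.88 in Model and 76.0 ± 2.92 in QYD (SD, n = 3). Mrps21, of the small subunit, stood at 29.5 ± 2.39, 76.0 ± 1.28 and 74.6 ± 5.24. The mitochondria-specific Mrpl52 stood at 25.7 ± 1.24, 80.3 ± 8.31 and 73.1 ± 5.98, and Mrpl54 at 15.7 ± 0.523, 57.1 ± 2.85 and 52.1 ± 1.08. Mrps21 and Mrpl52 differed by less than their spread in Model and QYD. These 4 genes, the highest by mean FPKM over all libraries, made up 23.6% of the family's FPKM in Control, 18.5% in Model and 18.2% in QYD. The lowest were Mrpl19, Mrps25 and Mrpl35, at 0.373, 0.57 and 0.87 FPKM in Control. Reads of Mrpl19 and Mrps25 may be hard to assign. Of Mrpl19's exon bases 36.0% overlap Gcfc2, and of Mrps25's 69.8% overlap Nr2c2, both on the opposite strand. Whether the counting separated strands is not known. The order of the genes was much alike between groups, with Pearson's r of 0.951 and Spearman's rho of 0.948 between Control and Model log2 FPKM and 0.987 for both between Model and QYD. These are across 78 genes, which share libraries and lengths and are not replicates.

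The comparison of Model with Control asks how caerulein and LPS injury altered the family. On the TMM scale 27 of the 78 genes were lower and 2 higher by the quasi-likelihood test of edgeR, Benjamini-Hochberg adjusted over all tested genes. Among all tested genes 21.3% were lower and 21.3% higher, against 34.6% and 2.56% of the family. The family's median log2 fold change was -0.27, against 0.04 for all genes, and values ran from -1.18 to 0.94. Of the 78 values 60 lay below 0 and 18 (23.1%) above, where 52.4% of all genes lay above 0. On library totals alone 78 of 78 were higher and none lower, with a median of 1.88 against 2.19 for all genes, of which 94.0% were higher. None of the 27 was lower on both scales, since the change of scaling moved all genes up by nearly the same amount, more than any member fell. For the same reason the family's median lay below that of all genes on both scales, and this is not a second result. The median standard error of a member's change was 0.15.

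By role, 8 of 29 large subunit genes with a bacterial counterpart (27.6%) were lower and none higher, with a median of -0.18. Of the 22 mitochondria-specific large subunit genes 7 (31.8%) were lower and 1 higher, with a median of -0.28. In the small subunit 8 of 16 with a bacterial counterpart (50.0%) were lower and 1 higher, with a median of -0.38. Of its 10 mitochondria-specific genes 4 (40.0%) were lower and none higher, with a median of -0.31. These counts stand beside 21.3% lower and 21.3% higher among all tested genes. On library totals the 4 medians were 1.98, 1.86, 1.77 and 1.85. The difference between the classes was not tested.

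**Figure D2:**
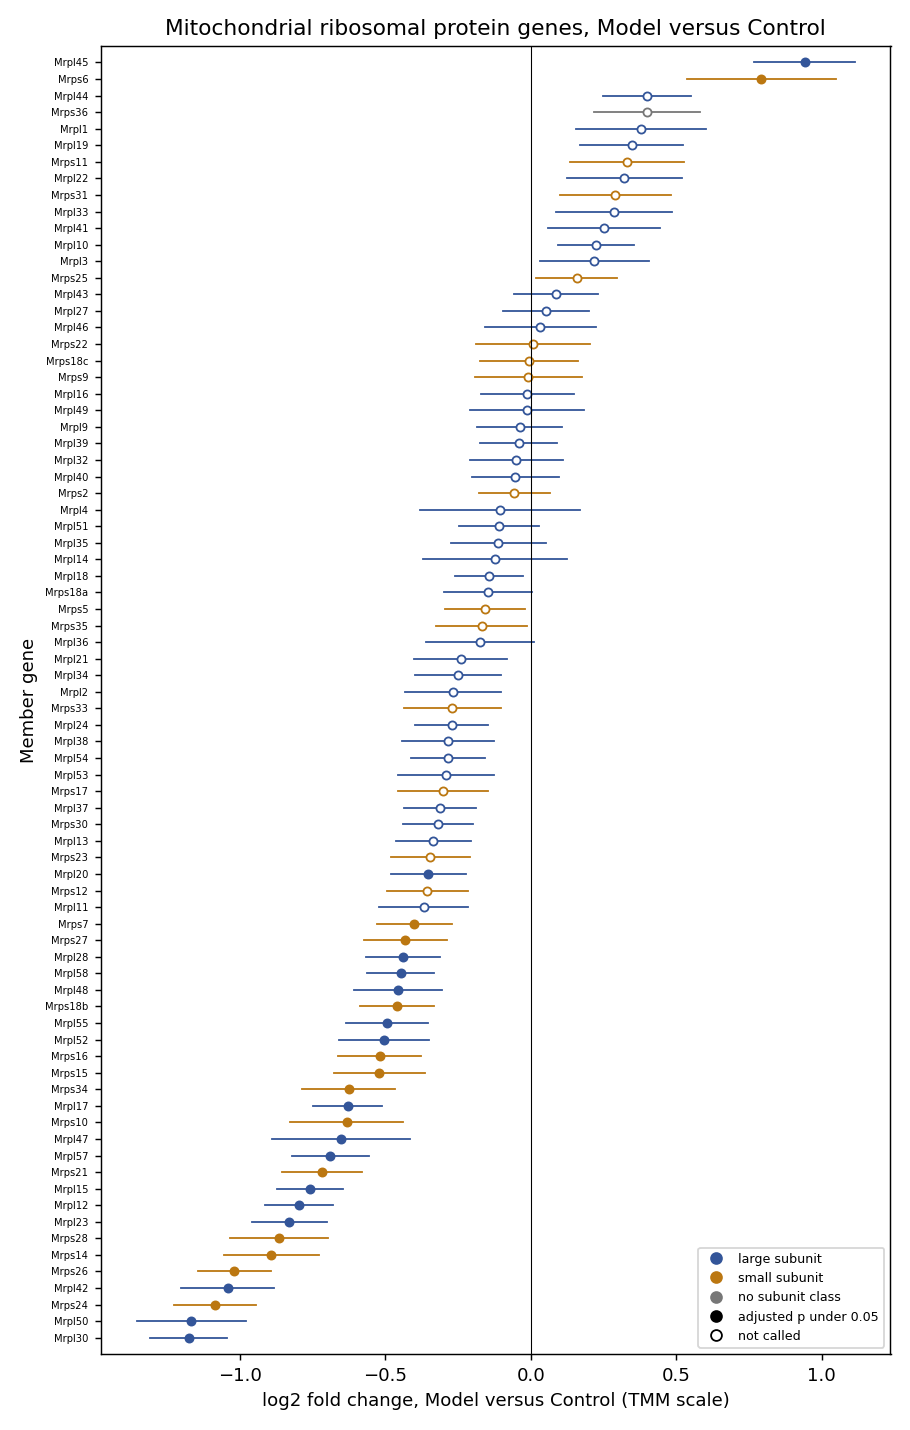
Log2 fold change of each of the 78 genes in Model versus Control on the TMM scale, with whiskers of ± 1 SE, coloured by subunit and filled where the adjusted p was under 0.05. Values run from -1.18 (Mrpl30) to 0.94 (Mrpl45), with 27 genes called lower and 2 higher, and on library totals all 78 lie above 0.

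In the large subunit, Mrpl30 (chromosome 1, 37890477 to 37898338, GRCm38.p6) changed most. Its levels were 55.1, 54.6 and 51.2 CPM on the TMM scale in Control, 23.0, 23.4 and 24.8 in Model, and 23.4, 27.5 and 32.7 in QYD. The Control libraries lay far above all 6 injured ones. Its log2 change in Model was -1.18 ± 0.13 (SE, adjusted p = 7.6e-05, edgeR), and 0.97 on library totals. Mrpl50 (chromosome 4, 49512597 to 49521083), a mitochondria-specific protein, stood at 22.2, 13.4 and 15.3 CPM in Control, 7.44, 6.58 and 8.59 in Model, and 8.07, 9.45 and 9.35 in QYD. Control 43 was the highest. All Control libraries lay above all injured ones, whereas Model and QYD overlapped. The change was -1.17 ± 0.19 (adjusted p = 0.00062, edgeR), -0.92 without Control 43, and 0.99 on library totals. Mrpl42 (chromosome 10, 95480805 to 95501949), also mitochondria-specific, stood at 26.6, 19.4 and 18.4 CPM in Control, 9.76, 10.7 and 10.7 in Model, and 12.01, 15.6 and 13.1 in QYD. The 3 groups did not overlap, with QYD between the others. Its change in Model was -1.04 ± 0.16 (adjusted p = 0.00049, edgeR), and 1.11 on library totals. Mrpl12, which also binds the mitochondrial RNA polymerase, changed by -0.80 ± 0.12. Mrpl58, a peptidyl-tRNA hydrolase that became part of the subunit, changed by -0.45 ± 0.12.

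In the small subunit, Mrps24 (chromosome 11, 5703982 to 5707701) stood at 27.4, 34.8 and 29.2 CPM in Control, 13.9, 13.7 and 15.5 in Model, and 13.5, 17.7 and 17.2 in QYD. All injured libraries lay below all Control libraries. The change in Model was -1.09 ± 0.14 (adjusted p = 0.0002, edgeR), and 1.06 on library totals. The mitochondria-specific Mrps26 (chromosome 2, 130563757 to 130565394) stood at 16.2, 19.2 and 16.0 CPM in Control, 8.21, 7.86 and 9.35 in Model, and 8.01, 8.14 and 7.86 in QYD. Model and QYD overlapped and both lay well below Control. Its change in Model was -1.02 ± 0.13 (adjusted p = 0.00013, edgeR), and 1.12 on library totals. Mrps14 (chromosome 1, 160195215 to 160201186) stood at 14.3, 11.2 and 14.2 CPM in Control, 6.93, 6.97 and 7.48 in Model, and 7.43, 8.91 and 10.8 in QYD. The Model libraries were tight, whereas QYD reached almost to the lowest Control library. The change in Model was -0.89 ± 0.16 (adjusted p = 0.0013, edgeR), and 1.26 on library totals.

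The 2 genes that rose on the TMM scale were Mrpl45 and Mrps6. Mrpl45 (chromosome 11, 97314923 to 97329920), a mitochondria-specific protein near the exit tunnel that ties the large subunit to the inner membrane, stood at 6.71, 5.98 and 10.2 CPM in Control, 14.3, 15.1 and 14.6 in Model, and 15.5, 17.1 and 15.8 in QYD. Control 45 was the nearest to the injured libraries, and no Control library overlapped them. Its change in Model was 0.94 ± 0.17 (adjusted p = 0.0014, edgeR), 1.21 without Control 45, and 3.09 on library totals. Mrps6 (chromosome 16, 92058336 to 92112227), a small subunit protein with a bacterial counterpart, stood at 2.38, 1.53 and 3.18 CPM in Control, 4.09, 4.85 and 3.31 in Model, and 2.98, 3.28 and 3.17 in QYD. Model lay above Control by a narrow margin, and QYD overlapped Control. The change was 0.79 ± 0.26 (adjusted p = 0.028, edgeR), from 17, 12 and 25 counts in Control. It did not pass without Control 43 (0.80), Control 44 (0.56), Model 56 (0.79) or Model 57 (0.65). Slc5a3 lies inside Mrps6 on the same strand and shares 19.9% of its exon bases together with a predicted gene, and the change of Slc5a3 was 0.34 ± 0.46 (adjusted p = 0.58, edgeR).

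The next 4 in order did not pass. Mrpl44, whose protein has a fold like that of ribonuclease III, was at 4.61, 5.98 and 6.61 CPM in Control and 7.24, 7.86 and 7.66 in Model, with a change of 0.40 ± 0.15 (adjusted p = 0.052, edgeR). Its groups did not overlap. Mrps36 was at 0.40 ± 0.18, Mrpl1, of the stalk where used transfer RNA leaves, at 0.38 ± 0.22, and Mrpl19 at 0.35 ± 0.18. Only 66.3% of the 50-base stretches of Mrps36 transcripts were unique in the annotation, and 59.7% of those of Mrpl19.

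**Figure D3:**
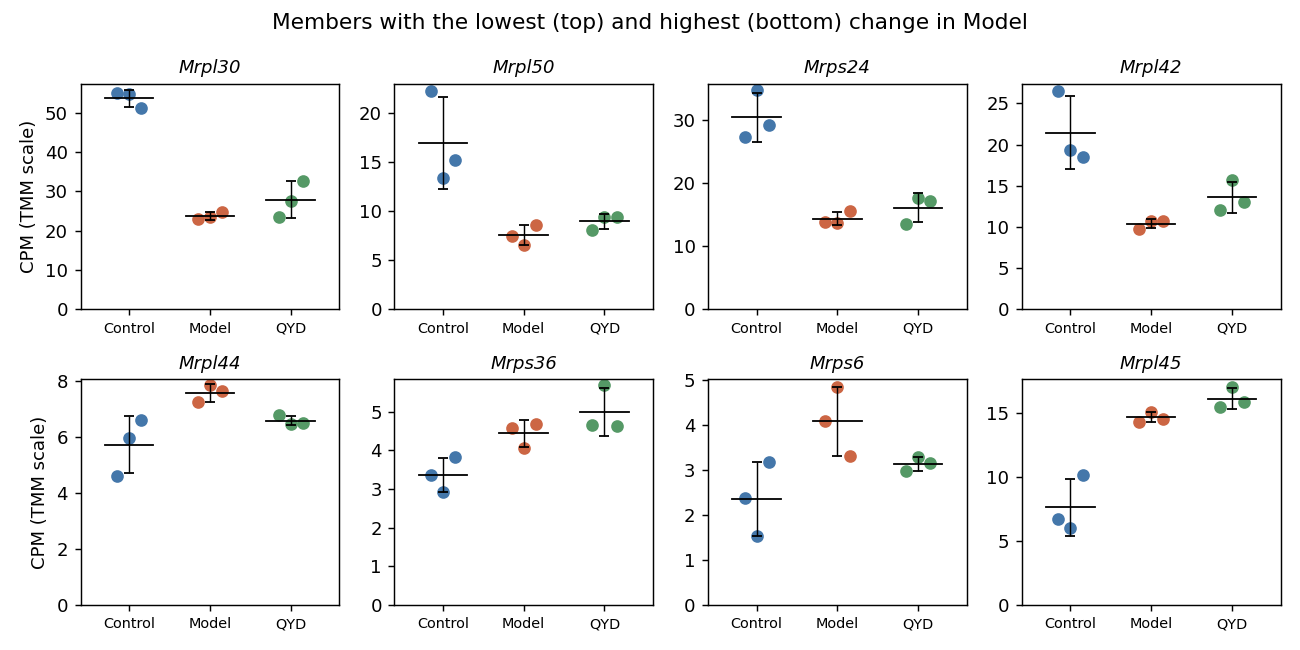
Level in CPM on the TMM scale of the 4 genes with the lowest (top) and the 4 with the highest (bottom) log2 fold change in Model, for each library (points), with the mean and ± 1 SD of 3 mice. Mrpl30 falls from 51.2 to 55.1 in Control to 23.0 to 24.8 in Model and Mrpl45 is higher at 14.3 to 15.1 against 5.98 to 10.2, whereas on library totals all 8 are higher in Model.

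Because the scaling sets the direction, changes within the family were also tested with library factors that make the geometric mean of its 78 genes equal in every library. A call then means that a gene's share within the family changed, and calls in both directions follow from the centring. In Model versus Control 13 genes were lower and 13 higher by edgeR with Benjamini-Hochberg adjustment, and with these factors 13.8% of all tested genes were lower and 31.5% higher. The lower ones were led by Mrpl30 (-0.93), Mrpl50 (-0.92), Mrps24 (-0.84) and Mrpl42 (-0.79). The higher ones were led by Mrpl45 (1.18), Mrps6 (1.03), Mrps36 (0.64) and Mrpl44 (0.64). The 13 higher calls came to 7 without Control 43 or Control 44, 5 without Model 56 or Model 57 and 8 without QYD 66. For these fits the shares of all tested genes are not given. The counts therefore do not show whether the family differed from all genes there.

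The ratio of Mrpl30 to Mrpl45 in FPKM needs no library factor. The pair was chosen after the values were seen, as the genes with the lowest and the highest change in Model. The fall of their ratio from Control to Model thus follows from the choice and gives the widest span in the family. The ratio was 33.4, 32.4 and 17.3 in Control, 5.70, 5.47 and 6.05 in Model, and 5.27, 5.68 and 7.41 in QYD. Control 45 lay between the other Control libraries and the injured ones, which were alike. Small subunit genes made up 33.7%, 32.7% and 32.2% of the family's FPKM in Control, 30.7%, 30.5% and 31.3% in Model, and 31.2%, 30.5% and 30.4% in QYD. Every Control library was above every injured one, by a small margin. In the mean log2 FPKM of small minus large subunit genes, which gives every gene the same weight, Control overlapped the injured groups, at 0.0019 ± 0.107 in Control, -0.105 ± 0.040 in Model and -0.121 ± 0.029 in QYD (SD, n = 3).

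Genes with higher levels tended to have lower changes, weakly. Across the 78 genes the log2 change in Model versus Control on the TMM scale had r of -0.349 and rho of -0.324 with log2 FPKM in QYD, libraries that do not enter the change, against -0.082 and -0.076 across all tested genes. In the lowest tercile of 26 genes by that level 6 were lower and 1 higher, with a median of -0.01, in the middle one 9 and 1, with -0.31, and in the highest 12 and none, with -0.31. Among all tested genes, of any level, 21.3% were lower and 21.3% higher. Calls also depend on the number of counts, so the tallies by tercile are not read as a result. With exon length r was -0.045 and rho -0.054.

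Other gene groups of mitochondrial translation had medians from -0.51 to -0.09 in Model versus Control on the TMM scale, and all were above 0 on library totals. Their counts stand beside 21.3% lower and 21.3% higher among all tested genes. Among 5 further subunits with other names 3 were lower and none higher, with a median of -0.51 on the TMM scale and 1.64 on library totals. Aurkaip1 changed by -0.86 ± 0.15, Ptcd3 by -0.90 ± 0.21 and Gadd45gip1 by -0.51 ± 0.13. Of 27 ribosome assembly and rRNA modification genes 7 (25.9%) were lower and 3 (11.1%) higher (median -0.26, and 1.88 on library totals). Tfb1m, which methylates the small subunit's RNA, changed by -1.43 ± 0.18, the assembly GTPase Noa1 by -0.75 ± 0.14 and the helicase Ddx28 by 0.78 ± 0.17. Of 16 translation factors 2 (12.5%) were lower and 1 higher (median -0.09, and 2.05). Peptide deformylase (Pdf), which trims new chains, changed by -0.61 ± 0.15, and the initiation factor Mtif2 by 0.49 ± 0.17.

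Of 17 mitochondrial aminoacyl-tRNA synthetases 5 (29.4%) were lower and 1 higher (median -0.11, and 2.04 on library totals), among them Fars2 (-0.89 ± 0.12) and Nars2 (-1.12 ± 0.20). Of 10 genes of mitochondrial DNA transcription and replication 3 (30.0%) were lower and none higher (median -0.38, and 1.78), with the transcription factor Tfb2m at -0.78 ± 0.17. Of 10 regulators of mitochondrial biogenesis 2 (20.0%) were lower and none higher (median -0.41, and 1.74), namely Myc (-1.37 ± 0.22) and the coactivator Pprc1 (-0.81 ± 0.13). Of 27 import genes 11 (40.7%) were lower and 2 higher (median -0.27, and 1.88), with Dnajc19, of the import motor, at -1.60 ± 0.16. The shares lower of the assembly genes and of the regulators were near that of all genes, and that of the translation factors was below it.

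Cytosolic ribosomal protein genes, the counterpart outside mitochondria, were lower for all 76 tested, the median being -1.02 on the TMM scale and 1.13 on library totals. Nuclear-encoded subunits of the respiratory chain and ATP synthase, the partners of the proteins that mitochondrial ribosomes make, were lower for 70 of 75, the median being -0.87 and 1.27. Ndufa1, of complex I, changed by -2.02 ± 0.15 and stood at 0.12 on library totals. The family's median of -0.27 lay between these groups and that of all genes, 0.04. The order on library totals is the same because the change of scaling moves all genes by nearly the same amount. These groups are described by their counts and medians, and the differences between groups were not tested.

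**Figure D4:**
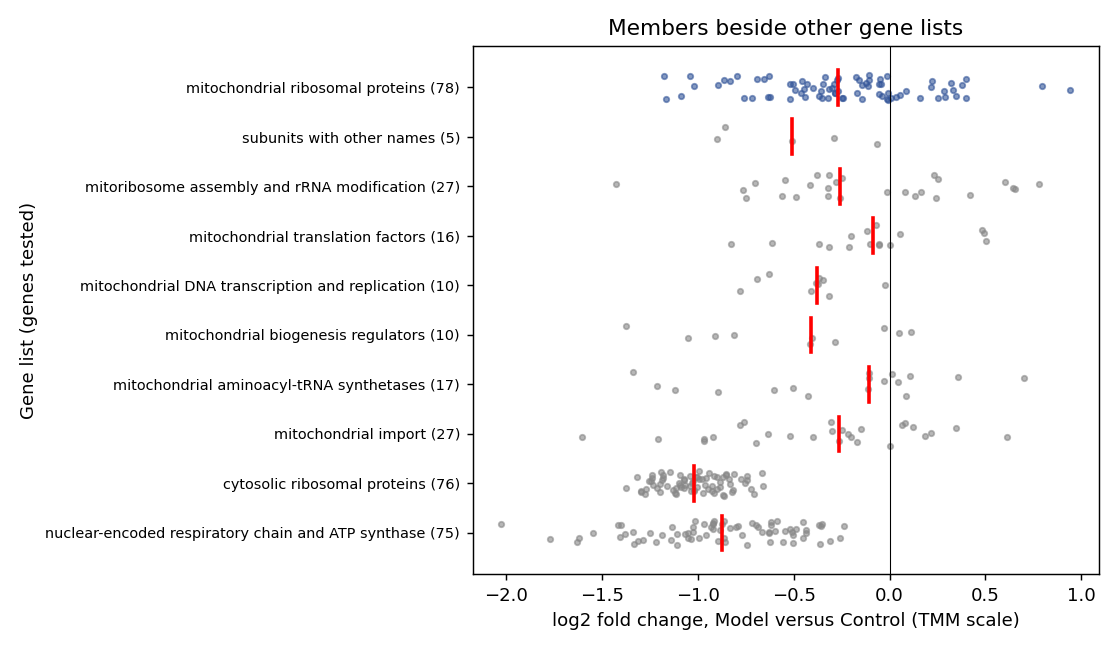
Log2 fold change in Model versus Control on the TMM scale for the 78 mitochondrial ribosomal protein genes (blue) and for genes of 9 other lists (grey), with the number tested in brackets and red lines at the medians. The family's median is -0.27, against -1.02 for cytosolic ribosomal proteins and -0.87 for the respiratory chain, and on library totals all these medians lie above 0.

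QYD versus Model addresses the decoction. None of the 78 genes passed the quasi-likelihood test of edgeR after Benjamini-Hochberg adjustment, where the smallest adjusted p was 0.826. Among all tested genes 0.0% were lower and 0.0% higher. At an unadjusted p under 0.05 there were 7 members higher and none lower, against 3.45% of all genes higher and 2.4% lower. On library totals it was none higher and 1 lower, and with the family's mean held equal none higher and 2 lower, so this tally turned with the scaling. DESeq2, limma-voom and limma on log2 FPKM also called 0 members. The median log2 change was 0.09, against 0.01 for all genes, with 58 of 78 values above 0, against 51.1% of all genes. On library totals the median was -0.04 and 34 values lay above 0, so the sign of this median depends on the scaling.

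The 4 genes with the smallest p were Mrps22, Mrpl1, Mrpl42 and Mrps31. Mrps22, a mitochondria-specific small subunit protein, stood at 4.92, 3.99 and 4.04 CPM in Model and 5.29, 6.27 and 6.48 in QYD, and at 5.17, 3.31 and 4.45 in Control. Model and QYD did not overlap, and Control overlapped Model. The difference was 0.47 ± 0.17 (SE), with a 95% interval of 0.10 to 0.85 before adjustment (adjusted p = 0.826, edgeR). Mrpl1 (chromosome 5, 96209498 to 96266727) stood at 5.12, 5.48 and 3.93 CPM in Model and 6.11, 6.77 and 7.34 in QYD, a difference of 0.47 ± 0.19 with an interval of 0.06 to 0.89. Mrpl42 differed by 0.38 ± 0.15, with an interval of 0.05 to 0.72. Mrps31, also mitochondria-specific, stood at 6.64, 6.58 and 5.59 CPM in Model and 7.02, 8.81 and 9.09 in QYD, a difference of 0.40 ± 0.16 with an interval of 0.04 to 0.76. These intervals are for genes picked by their p. Over all 78 genes the 95% intervals reached from -0.85 (Mrps6) to 0.89 (Mrpl1).

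**Figure D5:**
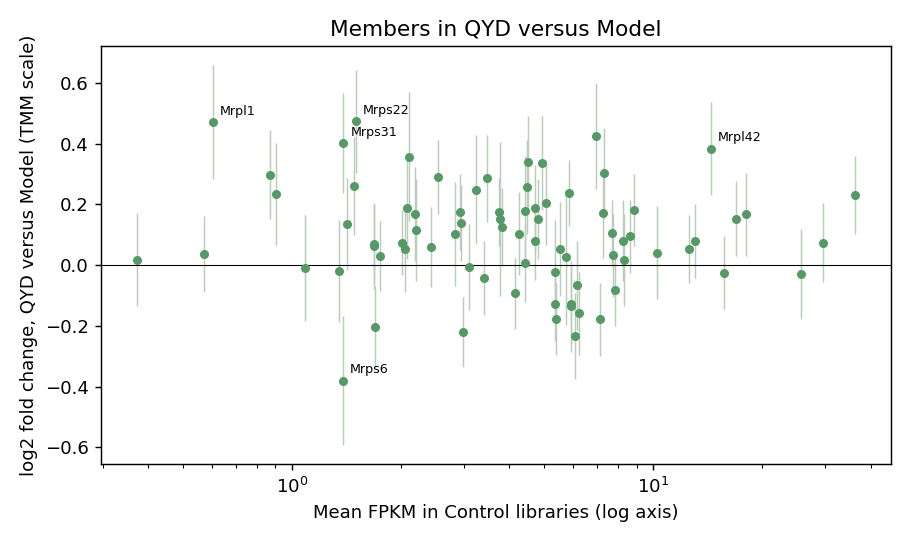
Log2 fold change in QYD versus Model on the TMM scale (whiskers ± 1 SE) against mean FPKM in Control (log axis) for the 78 genes, with the 4 genes of smallest p and Mrps6 named. Values lie between -0.38 and 0.47 with 58 above 0, none passed the adjusted threshold, and on library totals 34 lie above 0.

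QYD versus Control shares its Control libraries with the first comparison, so the values stand side by side and their likeness is not read as a result. On the TMM scale 22 genes were lower and 5 higher by edgeR with Benjamini-Hochberg adjustment, against 20.3% and 20.5% of all tested genes, with a median of -0.22. On library totals 78 were higher and none lower, with a median of 1.80, and 93.8% of all genes were higher. On the TMM scale 12 of 51 large subunit genes (23.5%) were lower and 3 higher, with a median of -0.15. In the small subunit 10 of 26 (38.5%) were lower and 1 higher, with -0.36. Mrps26 had the largest change, -1.10 ± 0.13 (adjusted p = 0.0001, edgeR), followed by Mrpl45, Mrpl30 (-0.95) and Mrps24 (-0.92). On library totals Mrps26 was at 0.93.

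The 5 higher genes were Mrpl45, Mrpl1, Mrpl33, Mrps31 and Mrps36. Mrpl45 changed by 1.08 ± 0.17 (adjusted p = 0.00071, edgeR) and Mrpl1 by 0.85 ± 0.22 (adjusted p = 0.011, edgeR), from 4.89, 2.67 and 3.69 CPM in Control. Mrpl33, a large subunit protein with a bacterial counterpart, had 5.73, 6.37 and 6.36 CPM in Control and 7.95, 9.18 and 13.2 in QYD, a change of 0.71 ± 0.20. QYD 68 was far above the other libraries of its group. Mrps31 changed by 0.69 ± 0.19 and Mrps36 by 0.57 ± 0.18. Only 69.7% of the 50-base stretches of Mrpl33 transcripts were unique in the annotation, and 66.3% of those of Mrps36. For Mrpl45, Mrpl1 and Mrps31 it was 96.2%, 99.9% and 100%. Without Control 44, 3 genes were called higher. With the family's mean held equal, 18 genes were lower and 11 higher, against 15.3% and 26.4% of all genes, led by Mrps26 (-0.95) and by Mrpl45. Without QYD 65 or QYD 66 the lower calls were 11, and without QYD 66 the higher calls were 5, with 7 without Control 43, Model 57 or QYD 68. Shares of all tested genes are not given for the fits with a library left out, so these counts have no baseline.

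Some genes share sequence with others, which may bear on how their reads were assigned. Of the 78 genes 16 had under 80% unique 50-base stretches or over 20% of exon bases in common with another gene. Of these 5 were lower in Model and 1 higher, Mrps6. Among the other 62 genes 22 were lower and 1 higher. On the TMM scale, which these counts use, 21.3% of all tested genes were lower in Model and 21.3% higher. Those shares include genes with and without shared sequence. Whether the 16 and the 62 genes differed from each other or from all genes was not tested. Mrpl46 and Mrps11 overlap each other, and no source used here gives the strand setting of the counting.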

How the data were processed

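Polyadenylated RNA of pancreas from 9 mice was sequenced, per the labels' protocols. Per the submitters' processing notes HISAT2 2.0.4, Bowtie2 2.2.5 and RSEM 1.2.12 were used with GRCm38.p6. The authors deposited estimated counts, per the file headers, of which 93.5% were whole numbers, and FPKM values per gene and library, scaled by length and library total.

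After rounding, the estimated counts entered edgeR 4.0.16 (R 4.3.3). Its default filter kept 12828 genes and dropped 4304. TMM factors were used, and 1 quasi-likelihood model with group as its only term covered all 9 libraries, with Benjamini-Hochberg adjustment at 0.05. The biological coefficient of variation was 0.175, and libraries of a group differed by more than sampling noise in every pair. Simulated counts with known changes were used to check the test. Symbols were matched to GENCODE and RefSeq tables of GRCm38. The 78 genes had a median of 79.5 to 91.5 counts in the Control libraries and 279.5 to 345.5 in Model.

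The genes and the lists they are compared with were chosen with earlier results of these data known. Named genes were the 6 lowest and 6 highest in Model versus Control, the 4 highest and 3 lowest by mean FPKM, the 4 of smallest p in QYD versus Model, the 4 largest changes in QYD versus Control and the outermost 4 calls on either side with the family's mean held equal. Others are named for their role or as the further calls of a short list. Alternatives were DESeq2-type (RLE) size factors, TMM leaving out the 50 genes of highest count, library size alone, no filter or 5 CPM, DESeq2 1.42.0, limma 3.58.1 (voom, and log2 of FPKM plus 1 or 0.1), only the compared groups, and each library left out.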

Additional observations from a re-analysis of the deposited data

How the results depend on the processing

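The direction of the family rests on the scaling. With library size alone, limma on log2(FPKM + 1) and limma on log2(FPKM + 0.1), in this order, Model versus Control had 0, 0 and 0 members lower, 78, 78 and 78 higher, and medians of 1.88, 1.65 and 1.88. In the same order Mrpl30 stood at 0.97, 0.94 and 0.96, Mrpl50 at 0.99, 0.82 and 0.98, Mrps24 at 1.06, 0.98 and 1.02, Mrpl42 at 1.11, 1.05 and 1.09, Mrps26 at 1.12, 1.04 and 1.12, and Mrps14 at 1.26, 1.13 and 1.28. QYD versus Control had 0, 0 and 0 lower, 78, 78 and 78 higher, and medians of 1.80, 1.62 and 1.83, with Mrps26 at 0.93, 0.86 and 0.93, Mrpl30 at 1.07, 1.05 and 1.07, and Mrps24 at 1.10, 1.05 and 1.09. These scalings leave out the composition factors, which were 0.359 to 0.397 in Control and 1.36 to 1.82 in the injured groups. Relative to the TMM scale, leaving them out moves nearly all genes up in the injured groups. With library size alone 94.0% of all tested genes were higher in Model versus Control and 93.8% in QYD versus Control. For limma on log2 FPKM the shares of all tested genes are not given. The counts of higher members are therefore not read as a result about the family.

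Under RLE scaling, TMM leaving out the 50 genes of highest count, DESeq2, limma-voom, only the compared groups, a 5 CPM filter and no filter, 21 to 32 members were lower in Model and 19 to 25 in QYD versus Control. For these settings and for the libraries left out below, the shares of all tested genes are not given. The counts therefore do not show whether the family differed from all genes there. The members higher in Model numbered 1 with limma-voom and 1 with only the compared groups, and limma-voom called 3 higher in QYD versus Control. With the family's mean held equal and only the compared groups, 7 were higher in Model and 7 in QYD versus Control. With the family's summed counts held equal instead, QYD versus Control had 10 lower and 20 higher. The cause of these shifts was not tested.

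With each library left out in turn, 20 to 27 members were lower and 1 to 4 higher in Model, and 15 to 24 lower and 3 to 6 higher in QYD versus Control. A single member was higher in Model without Control 43, Model 56 or Model 57, and 4 without Control 45. With the family's mean held equal the ranges were 11 to 15 lower and 5 to 12 higher in Model, and 11 to 15 lower and 5 to 11 higher in QYD versus Control. QYD versus Model had 0 calls in all of these settings. No paired analysis was possible because the groups share no replicate number. Depth limits the genes with few counts, such as Mrps6 with 12 to 25 counts in Control.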
